A study of Mus musculus with 14 samples.

Results

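Assembly of RNA-seq reads from mouse embryonic hippocampus gave transcripts that lie in no annotated gene. The loci described here are those whose assembled transcripts all carry the class code that the Cufflinks suite gives to intergenic transcripts, and whose mean over the libraries was at least 10 normalized fragments. Of 59796 loci in the gene table, 5032 met this rule, among 9963 intergenic loci that could be matched to it. Another 4927 matched intergenic loci had a lower mean, and 4 loci from 2 stretches of chromosome 16 numbers were set aside. The lowest mean inside the limit was 10.002 and the highest outside it was 9.987. The 14 libraries came from 4 groups of embryos at embryonic day 16 to 18 on a C57BL6 background. Of these, 3 were from 189N3 mice, which carry a bacterial artificial chromosome with an extra copy of Dyrk1a, and 3 were from their wild-type littermates. Another 4 were from Dp(16)1Yey/+ mice, which carry an extra copy of the chromosome 16 segment from Lipi to Zbtb21, Dyrk1a included, and 4 were from their wild-type littermates. Replicate numbers start at 0, following the labels.

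Intergenic transcripts of this kind are a mixture. Long intergenic noncoding RNAs are transcribed by RNA polymerase II from promoters of their own, often near genes of transcription factors or of neuronal adhesion molecules, and many are found in 1 tissue or in 1 class of neurons. Others are stretches of transcript that continue past the annotated end of a gene, or pieces of 1 long transcript that an assembler leaves in separate parts. In developing brain, long gene-poor intervals beside neuronal genes are known to hold many such transcripts.

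Dyrk1a, the kinase gene carried in an extra copy by both models, stood at 4248, 3938 and 5877 normalized fragments in 189N3 and at 2448, 2977 and 2126 in the littermates. In Dp(16)1Yey/+ it stood at 4781, 2124, 3600 and 3044, against 2488, 2397, 3171 and 3175 in the littermates. The library labelled Dp(16)1Yey/+ replicate 1 went against its label: over 82 named genes of the triplicated region its median difference from the littermates was 0.07 on the log2 scale, against 0.69, 0.57 and 0.40 in replicates 0, 2 and 3. Counts of tested loci and log2 fold changes of Dp(16)1Yey/+ against its littermates are therefore given with and without it. The littermates of Dp(16)1Yey/+ mice formed 2 pairs of nearly alike libraries. The chi-square per degree of freedom over intergenic loci was 1.19 between replicates 0 and 1 and 1.23 between replicates 2 and 3, against 5.05 to 24.9 in the other pairs of libraries of 1 group. The libraries held 20809135 to 29098454 fragments. All 6 hippocampal and pyramidal neuron markers found in the table, among them Zbtb20, Prox1 and Neurod6, were detected in every library. Transcripts of both Xist and the Y-linked genes, each above 100 normalized fragments, were found in 12 of the 14 libraries.

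The intergenic loci took between 1.22% (189N3 replicate 2) and 2.54% (Dp(16)1Yey/+ replicate 3) of the fragments of a library. Most were thinly covered. Their median mean was 24.8 normalized fragments, with quartiles of 15 and 52.4, while 608 loci reached 100 and 65 reached 1000. The 10 loci with the most fragments held 16.7% of all fragments of the group, and the first 100 held 48.5%. Nearly all were assembled as 1 transcript (4984 loci), and 48 had several, up to 5. In 4995 loci every library had at least 1 fragment. No locus was listed at 0 in all libraries of 1 line, and 37 were listed at 0 in some library.

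The files give no coordinates for these loci, and their sequences are therefore not shown. They are numbered along the chromosomes, first on the plus and then on the minus strand, and 99.79% of neighbouring named loci followed this order in the GENCODE vM21 annotation, whose GRCm38 assembly is that of mm10. The nearest named locus on either side by number thus gave the interval and the strand of 5001 loci, 2534 on the plus and 2467 on the minus strand. Chromosome 4 held most of them (376) and chromosome 19, among the chromosomes, the fewest (114). The interval between the flanking named loci had a median length of 463 kb, with quartiles of 139 and 1390 kb. The map pairs each intergenic locus with a reference gene, 3368 different genes in all. Of the loci that could be compared with it, 1838 lay on the other strand from the paired gene. A further 971 came directly after it on the same strand, 925 directly before it, and 409 were on its strand but not next to it. Loci on the other strand are called opposite the paired gene below. This gives the strand only, as their class is intergenic and their position is not known. GENCODE vM21 is a newer annotation than the one behind the map. It lists further genes on the same strand in the intervals of 4092 loci, among them long intergenic noncoding RNA genes in the intervals of 2123. Whether the loci are these genes could not be tested without coordinates.

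Many loci stood in rows. A run of consecutive intergenic loci with the same paired gene and the same flanking genes is called a block here, and the 5032 loci formed 3650 blocks. Of these 3045 held a single locus, whereas 24 blocks of 10 loci or more held 502 loci and 34.9% of the fragments of the group. The largest, with 63 loci, lay on the minus strand of chromosome 7 between 4632427E13Rik and Gm15412 (mm10, 92741468 to 96339483). Loci of 1 block varied together across the 14 libraries: in the 24 large blocks the median correlation between 2 loci of a block ranged from 0.16 to 0.98, with a median of 0.75. These correlations have n = 14, and the points share library depth and tissue composition. Loci of a block are not independent observations of a condition.

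The 10 loci with the most fragments came from 4 blocks. They are ordered by fragments, not by level, since the lengths of the loci are not known. XLOC_006923, XLOC_006924 and XLOC_006926 belonged to a block of 4 on the plus strand of chromosome 11 between Pank3 and Nudcd2 (35791285 to 40733667), opposite Tenm2, which encodes a teneurin, a synaptic adhesion protein. XLOC_006923 had 18437, 21061 and 7318 normalized fragments in 189N3 and 16944, 16118 and 24168 in the littermates. Among Dp(16)1Yey/+ libraries it had 14108, 7882, 11805 and 19067, and in their littermates 11361, 12039, 14399 and 13863. Both transgenic groups overlapped with their littermates, and 189N3 replicate 2 was the lowest library. XLOC_006924 (mean 6050) and XLOC_006926 (mean 6986) followed the same order of libraries at the low end, with 189N3 replicate 2 lowest.

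XLOC_004841 (mean 10435) and XLOC_004840 (mean 7501) were the first loci of a block of 10 on the plus strand of chromosome 10 between Pawr and 9230102K24Rik (108414240 to 110596266), opposite Nav3, a gene of a microtubule-binding navigator protein. XLOC_004841 ranged from 5279 in 189N3 replicate 2 to 19423 in Dp(16)1Yey/+ replicate 3. Its other values were 13981 and 11172 in 189N3, 9466, 8390 and 12443 in their littermates, 7626, 13370 and 9098 in Dp(16)1Yey/+, and 8856, 9286, 9151 and 8556 in their littermates. The 4 littermates of Dp(16)1Yey/+ thus lay close together (8962 ± 325, SD, n = 4), while the Dp(16)1Yey/+ libraries spread widely around a mean of 12379 ± 5290 (SD, n = 4). These littermates form pairs of nearly alike libraries, so that their SD may in part measure technical spread.

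XLOC_051068, XLOC_051067, XLOC_051066 and XLOC_051072 (means 8256, 5896, 5294 and 5264) belonged to a block of 22 loci on the plus strand of chromosome 8 between Fut10 and Purg (31261738 to 33386325). The map pairs it with Gm8179, and GENCODE vM21 lists 2 long intergenic noncoding RNA genes, Gm45303 and Gm26578, in the interval. The block as a whole gathered 54705, 46257 and 24775 normalized fragments in 189N3 and 49110, 40803 and 54860 in their littermates. It gathered 32687, 64053, 60434 and 93215 in Dp(16)1Yey/+ and 44429, 46331, 44367 and 43392 in their littermates. Its loci had a median correlation of 0.97 with each other. The remaining locus of the 10, XLOC_033972 (mean 4660, 4 transcripts), lay on the minus strand of chromosome 3 between Dnajc19 and Dcun1d1 (34081321 to 35892105) in a block of 14. It had 10752 normalized fragments in the library labelled Dp(16)1Yey/+ replicate 1 and 2687 to 5501 in the other 13.

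The named genes most like these loci were sought among 10242 named loci with a mean of at least 100, by Pearson's r over the 14 libraries, as a description without a test. For XLOC_006923 they were 4930480K15Rik (0.89), 1700080N15Rik (0.82) and 4930517E11Rik (0.82). For XLOC_004841 they were Gpr82 (0.94), Plxna4os1 (0.93) and C630031E19Rik (0.92), and for XLOC_051068 Nexn (0.93), Gpr82 (0.88) and Far2 (0.88). Several of these are themselves noncoding or antisense transcripts. The genes with which the map pairs the blocks were not among the most alike: Tenm2 had r = 0.25 with the sum of the block opposite to it, and Nav3 had r = -0.26 with its own.

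A block opposite Robo2, an axon guidance receptor gene, varied most among the large blocks. It held 39 loci on the plus strand of chromosome 16 between Robo1 and Rbm11 (73046095 to 75592844). This interval also holds Robo2 on the minus strand (73891839 to 74411825), and the place of the loci relative to Robo2 is not known. Its sum was 74345, 39150 and 26072 normalized fragments in 189N3 and 11552, 24570 and 45677 in their littermates. The sum in Dp(16)1Yey/+ was 31503, 7497, 3378 and 36130, and in their littermates 5954, 6219, 21961 and 21109. The highest library was thus 22.0 times the lowest, the groups overlapped in both models, and the littermates of Dp(16)1Yey/+ fell into their nearly alike pairs. The interval reaches past Lipi, so that loci at the end of the block could lie inside the triplicated region, and this could not be told from their numbers. The named genes most like the sum were Arpp21 (r = 0.97), Vav3 (0.92) and Mef2c (0.90), the latter a transcription factor gene of excitatory cortical and hippocampal neurons. Eomes, a marker of intermediate progenitors, had r = -0.81 (n = 14 for each). The hippocampal and pyramidal neuron markers compared were divided, with r = 0.53 for Neurod6, -0.26 for Prox1 and -0.42 for Zbtb20. Over the 13 libraries without Dp(16)1Yey/+ replicate 1 these were 0.73, -0.7 and -0.64.

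Other blocks shared this profile to different degrees. A block of 34 loci on the plus strand of chromosome 1 between Ccdc93 and Slc35f5 (121506460 to 125560595), opposite the potassium channel subunit gene Dpp10, had r = 0.89 with the block opposite Robo2 and r = 0.87 with Arpp21. Its sums were 3795, 2847 and 1423 in 189N3 and 684, 996 and 2047 in their littermates, and 2153, 965, 501 and 3477 in Dp(16)1Yey/+ against 687, 707, 1033 and 960. Dpp10 itself had r = 0.39 with it. A block of 27 loci followed Fbxl4 on the plus strand of chromosome 4 (22434091 to 24496451), in the interval that holds Pou3f2 on the other strand (22482780 to 22488366). Its r with the block opposite Robo2 was 0.63. The named genes most like the sum of the block after Fbxl4 were Kcnh5 (r = 0.95), Nin (0.92) and Mc4r (0.91). Pou3f2, which encodes a transcription factor of upper-layer cortical neurons, had r = 0.90 with it. Rorb also had 0.90, whereas Fbxl4 had 0.66. The hippocampal and pyramidal neuron markers compared were divided, with 0.74 for Neurod6, -0.85 for Prox1 and -0.76 for Zbtb20. The sums were 6659, 2803 and 3214 in 189N3, 1006, 1693 and 3771 in their littermates, 3510, 9710, 582 and 9268 in Dp(16)1Yey/+, and 1108, 1213, 2241 and 2346 in their littermates.

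Another set of blocks ran opposite to the block after Fbxl4. Over the 14 libraries the chromosome 7 block of this set had weaker correlations with the blocks paired with Dpp10 and Robo2 (r = -0.3 and -0.23). With Arpp21 and Mef2c, named above for the block opposite Robo2, it had r = -0.39 and -0.49. Over the 13 libraries without Dp(16)1Yey/+ replicate 1 these were -0.75 and -0.84, so the weakness rests in part on that library. The 63 loci on chromosome 7, paired with AK077481, had a sum of 1853, 5060 and 1290 normalized fragments in 189N3 and 4056, 2529 and 2349 in their littermates. Values in Dp(16)1Yey/+ were 1722, 334, 5036 and 1326, and in their littermates 5009, 5247, 2428 and 2339. Another 2 blocks on the plus strand of chromosome 8, 9 loci before and 19 after the noncoding RNA gene Gm2516 (50368112 to 50416088), had r = 0.95 and 0.97 with it, and each had r = 0.99 with Gm2516. A block of 19 loci on the minus strand of chromosome 4 between Bnc2 and Haus6 had r = 0.95 with the chromosome 7 block. The chromosome 7 block had r = 0.87 with Prox1, a marker of dentate granule neurons, and 0.85 with Zbtb20, a hippocampal transcription factor gene, but r = -0.74 with Neurod6, a transcription factor gene of pyramidal neurons. The values for Neurod6 were also negative in the other blocks of this set, -0.59 and -0.66 on chromosome 8 and -0.71 on chromosome 4. With both Rorb and the block after Fbxl4 the chromosome 7 block had r = -0.81. The library labelled Dp(16)1Yey/+ replicate 1 had the lowest values of the chromosome 7 block (334), Prox1 (161) and Zbtb20 (1789). Over the other 13 libraries the correlations of that block were 0.72 with Prox1, 0.86 with Zbtb20 and -0.72 with Neurod6. A block of 10 loci paired with Tex29 on chromosome 8 showed the opposite pattern, with 1060 in that library and 62 to 230 in the other 13. Only 2 of its loci reached a mean of 10 over 189N3 and its littermates, against all 10 over Dp(16)1Yey/+ and its littermates. Their place among the loci described here thus rests in part on the libraries where they were high. Fewer cells of a type and less RNA per cell cannot be told apart in such bulk samples.

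**Figure D1:**
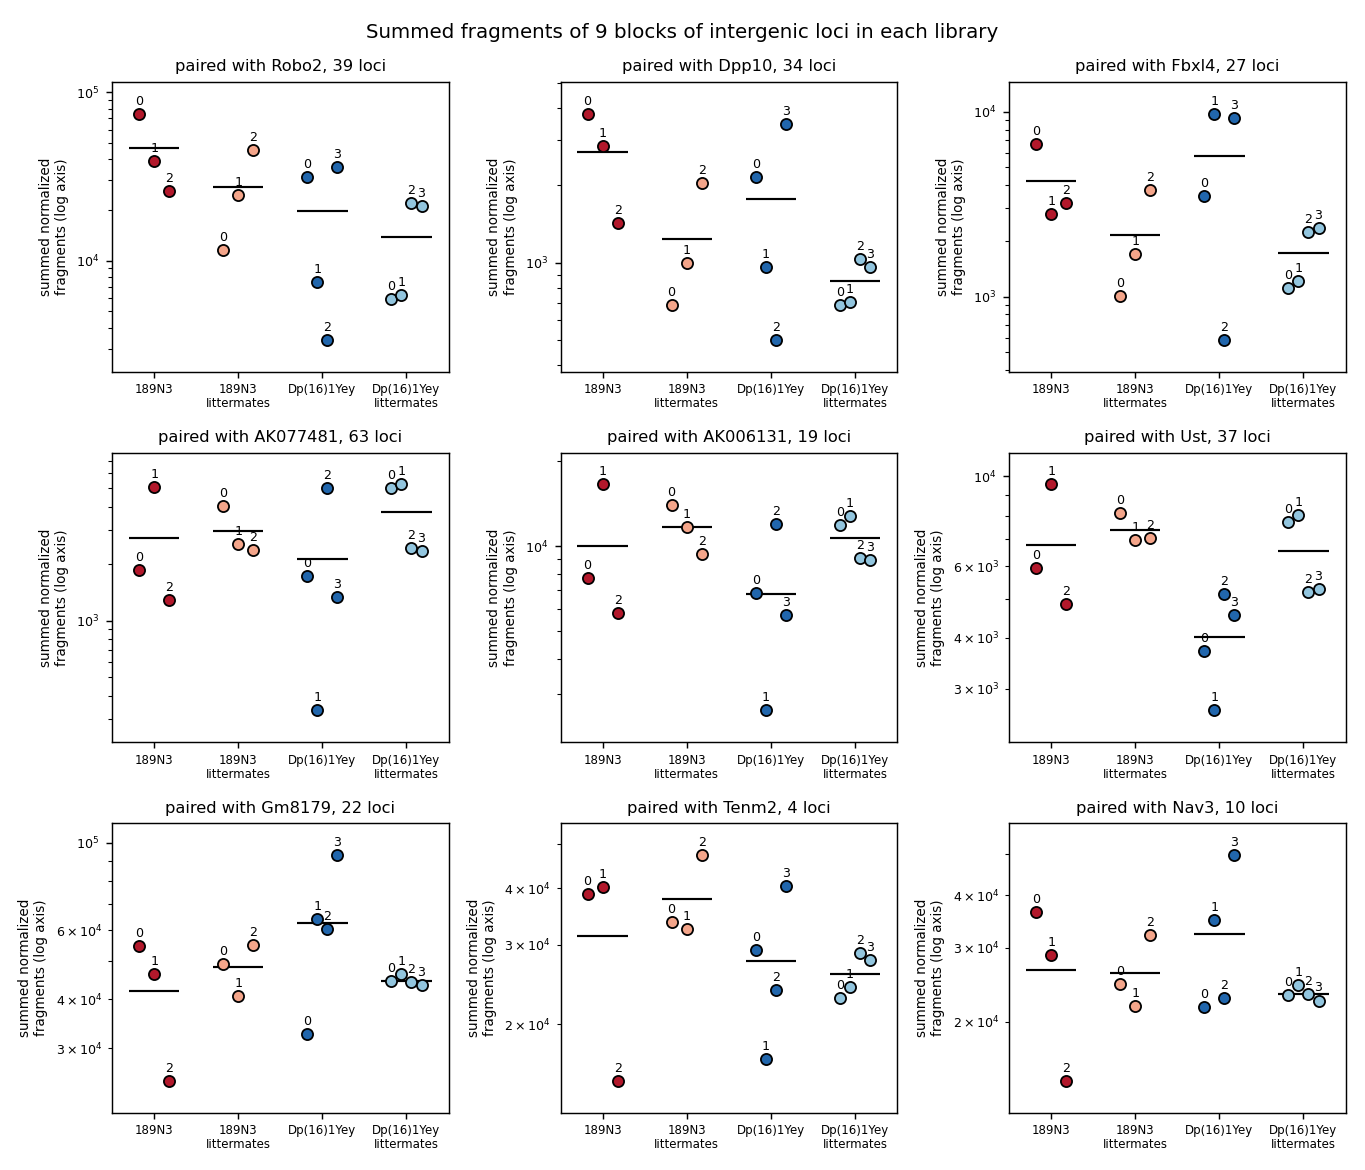
Summed normalized fragments (log axis) of 9 blocks of intergenic loci in each of the 14 libraries, by group. Points are libraries with their replicate number and horizontal lines are group means; in the block paired with Robo2 the values run from 3378 to 74345, and replicates 0 and 1 and replicates 2 and 3 of the Dp(16)1Yey littermates lie together in that panel.

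A pair of loci differed from this picture. XLOC_042113 and XLOC_042114, on the minus strand of chromosome 5 between Sirt4 and 1110006O24Rik (115484725 to 115631049), were highest in littermate replicate 2 of the 189N3 line (10827 and 9247 normalized fragments) and between 1403 and 5171 in the other libraries. The named genes most like the sum of their block were Pecr (r = 0.95), Rnu12 (0.95), the U12 small nuclear RNA of the minor spliceosome, and Scarna6 (0.91), a small Cajal body RNA. That library also had the highest summed skin markers (2202, against 184 to 504 in the other 13). The part of either in the result was not tested.

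Intergenic loci varied more between libraries of 1 group than named genes did where many fragments were counted. Among loci with a mean of at least 1000, the median within-group SD of log2(value + 1) was 0.47 for 65 intergenic loci and 0.25 for 4109 named loci, and the 90th percentile was 1.19 against 0.45. For means of 300 to 1000 the medians were 0.41 and 0.28. For means of 10 to 30, where counting error is largest, they were 0.49 and 0.50. Intronic and antisense loci with a mean of at least 1000 had medians of 0.40 and 0.35. These are descriptions over loci that share libraries, and many of the intergenic loci with high means belong to a few blocks.

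**Figure D2:**
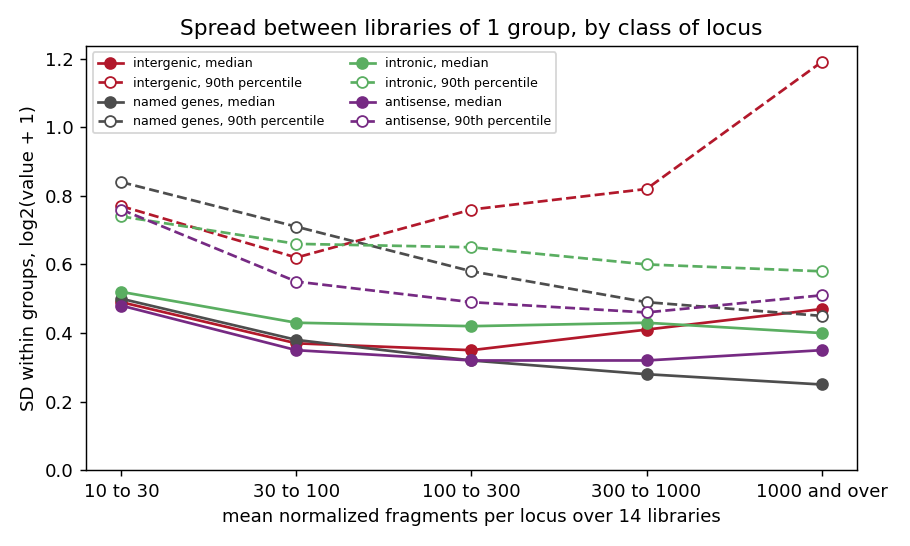
SD between libraries of 1 group, on the scale of log2(value + 1), by the mean normalized fragments of a locus and its class. Filled points with solid lines are medians and open points with dashed lines 90th percentiles over loci; at a mean of 1000 and over the intergenic loci have a median of 0.47 and a 90th percentile of 1.19, against 0.25 and 0.45 for named genes.

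The first comparison asked what an extra copy of Dyrk1a changes. In 189N3 mice, limma called 0 of the 4752 intergenic loci that were tested at an adjusted p of 0.05, and 0 of all 35899 loci (0.0%). Dyrk1a itself did not pass there, with a log2 fold change of 0.89, so that changes of this size can be missed. DESeq2 and edgeR called 0 intergenic loci as well. An unadjusted p-value under 0.05 was found for 174 (3.66%), 78 higher and 96 lower, against 1.87% of all loci tested. Single libraries moved this count: it was 65 without littermate replicate 0, 348 without 189N3 replicate 1 and 300 without 189N3 replicate 2. The groups did not overlap for 431 (9.07%), 134 higher and 297 lower, against 4.98% of all loci. Under random labels, groups of 3 against 3 do not overlap at a rate of 0.1, which 9.07% does not exceed. Nor does 3.66% exceed the 0.05 of its threshold. The loci with small p-values clustered in blocks. Of 479 tested loci in blocks of 10 or more, 49 were below 0.05, from 7 blocks, and 45 of these were higher in 189N3. Without 189N3 replicate 1 there were 125 such loci, of which 75 were lower. Of 2893 single loci, 90 were below 0.05, of which 72 were lower. All 34 loci opposite Dpp10 had higher means in 189N3, 24 of them with an unadjusted p-value under 0.05 and with a median log2 fold change of 1.13. The loci of a block share their libraries and vary together, and the sums of this block overlapped between the groups.

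Of the 5 intergenic loci with the smallest p-values among those higher in 189N3, 4 were from that block. XLOC_001037 had 93.1, 62.8 and 44.6 normalized fragments in 189N3 and 8.66, 21.7 and 32.6 in the littermates, and the groups did not overlap. Its log2 fold change was 1.74 (standard error 0.42, unadjusted p = 0.000965 in limma), and the exact permutation p was 0.1, the smallest that 3 against 3 allows. XLOC_000996, XLOC_001031 and XLOC_001045 had log2 fold changes of 1.43, 1.61 and 1.67, the last of which was 1.11 without littermate replicate 0. The fifth, XLOC_044843, lay on chromosome 6 between Crhr2 and Neurod6 on the minus strand (55133016 to 55677822), opposite Adcyap1r1, a receptor gene for a neuropeptide. It had 33.0, 30.2 and 29.1 in 189N3 and 10.4, 3.61 and 14.5 in the littermates, which is a difference of 1.76 on the log2 scale (standard error 0.43). The values in Dp(16)1Yey/+ were 20.8, 52.9, 6.12 and 48.3 against 6.18, 6.93, 9.71 and 10.1.

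Among those lower in 189N3, XLOC_002348 lay between Mreg and Pecr on the minus strand of chromosome 1 (72212307 to 72259167). It had 324, 1065 and 1115 normalized fragments in 189N3 and 1796, 1106 and 3286 in the littermates (log2 fold change -1.36, standard error 0.44), and the groups overlapped by 1 library. Without 189N3 replicate 0 the log2 fold change was -0.78. The others had low counts: XLOC_020512 between N6amt1 and Usp16 in the chromosome 16 segment that Dp(16)1Yey/+ mice carry in an extra copy (log2 fold change -1.36), XLOC_018815 upstream of Ywhaz by number (-1.25), XLOC_055544 between 4931406C07Rik and Fat3 (-1.21) and XLOC_029930 between Pfdn4 and Dok5 (-0.88). In each of these 4 the 3 transgenic libraries lay below the 3 littermates. XLOC_020512 had a mean of 7.98 in 189N3 and 22.4 in the littermates, so that its place among these loci rests in part on the littermates. XLOC_029930 had 28.8, 22.8 and 30.1 against 52.0, 46.9 and 53.2. The summed erythroid markers (4 of 5 found, none at 0) were also lower, 3469 to 4826 in 189N3 against 8631 to 12712 in the littermates, and the connective tissue markers (4 of 4, none at 0) were 1055 to 1740 against 1721 to 5308. Their part in these differences was not tested.

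The second comparison asked what the extra copy of the chromosome 16 segment changes. At an adjusted p of 0.05, limma called 0 of 4836 intergenic loci in Dp(16)1Yey/+ mice and 0 of all 36024 loci (0.0%). DESeq2 called 1, XLOC_011839, and edgeR 0. An unadjusted p-value under 0.05 was found for 275 (5.69%), 156 higher and 119 lower, against 3.53% of all loci. The groups did not overlap for 152 loci (3.14%), 103 higher and 49 lower, against 2.45% of all loci. Under random labels the rate for groups of 4 against 4 is 0.0286, which is close to 3.14%. Without the library labelled replicate 1, 153 of 4762 had an unadjusted p-value under 0.05 (3.21%, against 1.98% of all loci) and 0 passed the adjusted threshold in limma, against 3 of all 35767 loci. The count also moved with other libraries, to 437 without replicate 0, 482 without replicate 2 and 149 without replicate 3, and it was 58 when each nearly alike pair of littermates was averaged. Of the 61 loci from blocks of 10 or more with an unadjusted p-value under 0.05, 53 were lower in Dp(16)1Yey/+, and without replicate 1 it was 17 of 20. The library labelled replicate 1 also had the highest summed erythroid (14797), muscle (420) and connective tissue (2946) markers of its group, against 1717 to 6370, 23 to 81 and 361 to 1097 in the other 3. No marker of these lists was at 0 in all 4, and their part in these differences was not tested.

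Of those 61 loci, 25 belonged to the block opposite Ust, a sulfotransferase gene, on the plus strand of chromosome 10 between Ppil4 and Shprh (7823135 to 11149427). All 35 loci tested in it had lower means, with a median log2 fold change of -0.74. Without the library labelled replicate 1 that median was -0.57, and 15 of the 35 were below 0.05. When nearly alike littermates were averaged it was 10 of 34. The sum of its 37 loci was 3710, 2652, 5128 and 4558 in Dp(16)1Yey/+ and 7728, 8009, 5187 and 5272 in the littermates, so that the groups did not overlap, though replicate 2 and the nearly alike littermate replicates 2 and 3 differed little. In 189N3 the sum was 5939, 9538 and 4859 against 8131, 6954 and 7035. The most alike named gene was Gm2516 (r = 0.92).

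XLOC_011839, on the minus strand of chromosome 12 between Prkd1 and Strn3 (50649098 to 51609632), had the smallest p-value. It had 36.6, 62.3, 31.6 and 65.4 normalized fragments in Dp(16)1Yey/+ and 13.4, 12.9, 15.1 and 16.2 in the littermates. All 4 libraries lay above all littermates, with a mean of 49.0 ± 17.3 (SD, n = 4) against 14.4 ± 1.53 (SD, n = 4). The log2 fold change was 1.64 (standard error 0.28, limma adjusted p = 0.909) and 1.5 without the library labelled replicate 1. The exact permutation p was 0.0286, the smallest that 4 against 4 allows. In 189N3 it had 44.0, 18.8 and 25.9 against 24.3, 23.5 and 36.3.

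The other loci with the smallest p-values among those higher were XLOC_021654, described with the triplicated region, XLOC_043300 after Adcyap1r1 on chromosome 6 (log2 fold change 1.0, standard error 0.21), XLOC_021844 between Chd1 and Zfp960 on chromosome 17 (1.22) and XLOC_041476 upstream of Sel1l3 on chromosome 5 (1.05). Without the library labelled replicate 1 the last 3 had 0.93, 1.17 and 0.92. In all 4 of these loci every transgenic library lay above the littermates. XLOC_043300 had 112, 181, 155 and 184 against 88.6, 70.3, 87.4 and 64.7. Among those lower, XLOC_008458 lay between Slc26a11 and Endov on chromosome 11, and had 8.90, 4.70, 10.2 and 10.1 against 30.9, 18.8, 23.7 and 17.2. On the log2 scale this is -1.34 (standard error 0.33), and -1.11 without replicate 1. XLOC_026900, between Emx2, a homeobox gene of the developing cortex, and E330013P04Rik on chromosome 19, had a log2 fold change of -1.55, or -1.46 without replicate 1. It was below the littermates in all 4 libraries, and in 189N3 in all 3. XLOC_008458 and XLOC_026900 had means of 8.47 and 7.78 in Dp(16)1Yey/+ and of 22.7 and 24.2 in the littermates. Their place among the loci described here thus rests in part on the libraries where they were high. The remaining 3 (XLOC_003527, XLOC_003556 and XLOC_003559) were from the block opposite Ust, with log2 fold changes of -1.06, -0.85 and -0.87, which were -0.85, -0.63 and -0.81 without replicate 1.

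The segment that Dp(16)1Yey/+ mice carry in an extra copy runs from 75540514 to 97962622 on chromosome 16. It held 41 intergenic loci by the place of their flanking named genes, of which 40 passed the filter on low values. The median log2 fold change of these 40 was 0.37, against 0.07 over 4796 intergenic loci elsewhere and 0.42 over 82 named genes of the segment. A dose of 3 copies against 2 would give 0.585. Of the 40, 37 had higher means. An unadjusted p-value under 0.05 was found for 9, all higher. All 4 libraries lay above all littermates for 6 and below for 0, a share of 15%, against 2.02% of intergenic loci elsewhere and 1.72% of all loci tested. In the separate libraries the median over the 40 was 0.41, 0.10, 0.48 and 0.63, with the library labelled replicate 1 the lowest. Without it the median of 39 loci was 0.55 and that of the named genes 0.54, and 9 of 40 loci had no overlap (22.5%, against 3.33% of intergenic loci and 2.56% of all loci without that library, and 52.4% of the named genes of the segment). In 189N3 the median of 38 loci was -0.18. These values are descriptions of a list and were not tested as a set.

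XLOC_021654 had the smallest p-value of the segment. It lies on the minus strand between Pigp and Kcnj6 (94371842 to 94748636) and is paired with Dscr3. It had 102, 94.0, 116 and 130 normalized fragments in Dp(16)1Yey/+ and 49.5, 55.4, 56.1 and 64.7 in the littermates, a mean of 111 ± 15.8 against 56.4 ± 6.29 (SD, n = 4 each). The groups did not overlap, also in the library labelled replicate 1. The log2 fold change was 0.95 (standard error 0.19, limma adjusted p = 0.909), and 1.03 without that library. In 189N3 it was -0.17 (standard error 0.27), from 70.2, 79.9 and 75.8 against 72.8, 73.1 and 114. XLOC_021646, in the same interval, had a log2 fold change of 0.96 (1.08 without that library), and XLOC_020464, after Rbm11, 0.97 (0.88 without it). XLOC_021538, upstream of Rwdd2b by number, had 72.2, 67.0, 96.9 and 114 against 41.2, 39.6, 65.8 and 51.6, a log2 fold change of 0.80 (0.92 without it). XLOC_021545, between Cct8 and Grik1, had 0.77 (0.83 without it). In each of these 5 the exact permutation p was 0.0286.

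The only loci of the 40 with a lower mean were XLOC_020593, XLOC_021591 and XLOC_021511. XLOC_020593, the locus that follows Dyrk1a on the plus strand, had 56.4, 12.9, 24.5 and 49.3 normalized fragments in Dp(16)1Yey/+ and 27.8, 28.7, 61.5 and 73.8 in the littermates. The difference was -0.49 on the log2 scale (standard error 0.47), and in 189N3 it was -0.18 (standard error 0.39), so that neither differed beyond the spread between libraries. Without the library labelled replicate 1 the first of these was -0.09. XLOC_021591, between Scaf4 and Mis18a and paired with the kinase gene Hunk, had -0.31 (standard error 0.26), and XLOC_021511, between Nrip1 and E330011O21Rik, had -0.09 (standard error 0.32). These were -0.29 and -0.23 without replicate 1. The locus of the segment with the most fragments, XLOC_021673 between Brwd1 and Hmgn1, had 781, 341, 525 and 678 against 384, 344, 403 and 380, or 0.56 higher on the log2 scale (standard error 0.24), and 0.79 higher without replicate 1. Only the library labelled replicate 1 overlapped with the littermates there.

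**Figure D3:**
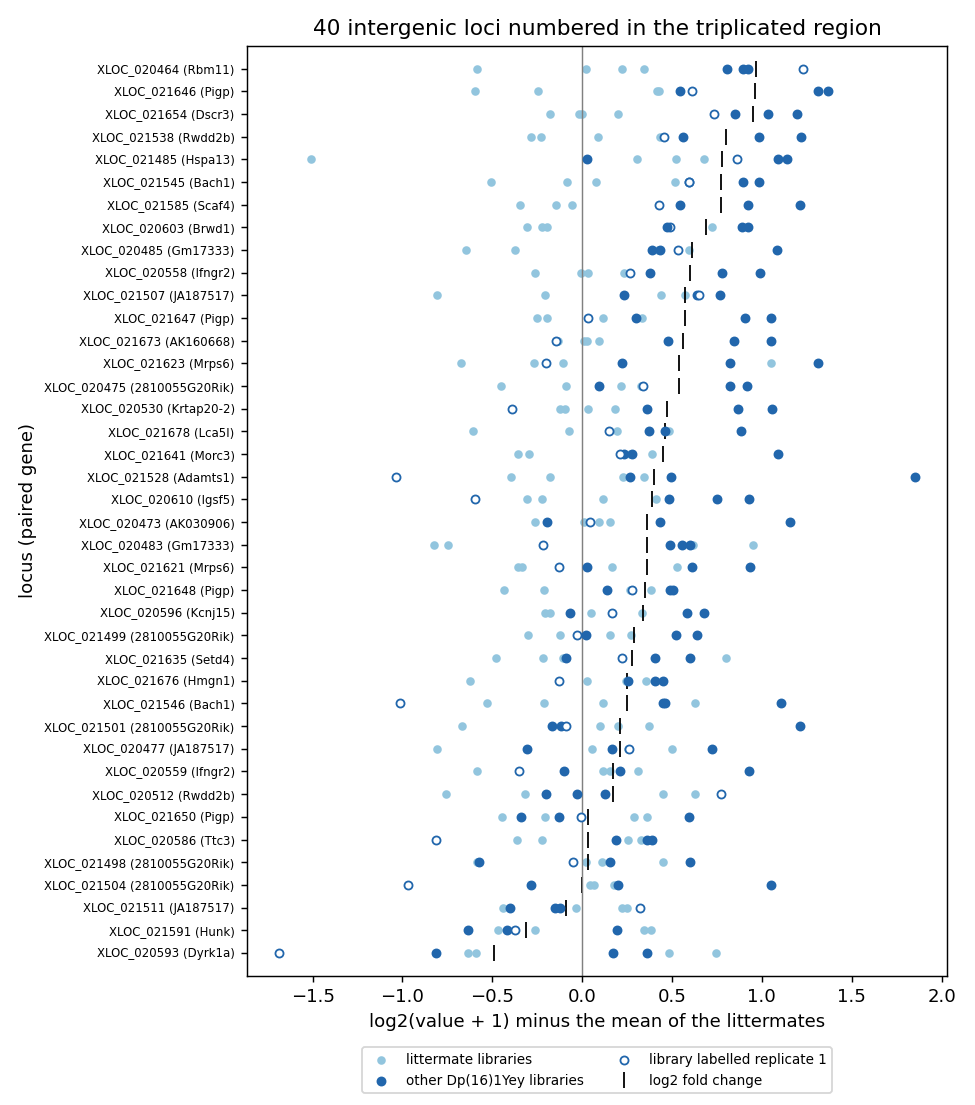
Intergenic loci numbered in the triplicated segment of chromosome 16, ordered by log2 fold change, with each library as its difference in log2(value + 1) from the mean of the 4 littermates. Of the 40 loci, 37 have a log2 fold change above 0; the open circles of the library labelled replicate 1 have a median of 0.10, against 0.41 to 0.63 in the other Dp(16)1Yey libraries.

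The difference between the effects of the 2 models was tested as an interaction in 1 fit of the 4 groups. Of 5032 intergenic loci 0 passed, as did 0 of all 36045 loci (0.0%), in limma, and DESeq2 and edgeR also called 0 of them. An unadjusted p-value under 0.05 was found for 207 (4.11%), against 2.66% of all loci. Of these, 156 had a larger log2 fold change in Dp(16)1Yey/+. The count was 147 without the library labelled Dp(16)1Yey/+ replicate 1, 383 without replicate 0 of that group and 102 with nearly alike littermates averaged. The smallest p-values were those of XLOC_021654 (difference of 1.12, standard error 0.29), XLOC_029930 (1.26), XLOC_017805 (1.69), XLOC_011839 (1.62) and XLOC_014895 (1.5). Without Dp(16)1Yey/+ replicate 1 these were 1.19, 1.27, 1.41, 1.48 and 1.51. In the other direction they were those of XLOC_041388 (-1.31), XLOC_057638 (-1.10), XLOC_006263 (-1.0), XLOC_034366 (-1.63) and XLOC_049348 (-1.47), and -1.05, -1.02, -1.03, -1.59 and -1.44 without that library. XLOC_006263, between 4930430F08Rik and the neurotensin gene Nts on chromosome 10, had 157, 231 and 245 normalized fragments in 189N3 against 126, 170 and 168. The values in Dp(16)1Yey/+ were 61.3, 71.7, 80.6 and 60.4 against 89.6, 83.1, 120 and 119, where the groups did not overlap.

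The wild-type littermates of both lines were compared to see how far the lines differ without the extra copies. Here 51 of 4866 intergenic loci passed the adjusted threshold in limma (1.05%), 35 higher and 16 lower in the littermates of 189N3, against 1351 of all 36047 loci (3.75%). An unadjusted p-value under 0.05 was found for 785 (16.1%, against 26.0% of all loci). The intergenic share was below that of named genes also at like numbers of fragments: for means of 30 to 100 it was 1.5% of 1530 intergenic against 3.68% of 2009 named loci, and for 300 to 1000 it was 2.65% of 113 against 6.15% of 4131. These shares were not tested against each other. The 51 calls came from 51 different blocks, and 39 of them were single loci. None of the 51 passed after leaving out any 1 of the 7 libraries, and 0 passed when each nearly alike pair of littermates was averaged to 1 sample. The line, the litter, the embryonic age, the library batch and the makeup of the dissected tissue cannot be told apart here. Erythroid markers summed to 8631 to 12712 in the littermates of 189N3 and 1605 to 4772 in those of Dp(16)1Yey/+, connective tissue markers to 1721 to 5308 and 246 to 792, and muscle markers (4 of 4, none at 0 in a group) to 97 to 252 and 15 to 47. Their part was not tested.

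The transgenic libraries of the lines gave a comparison that shares no sample with this one. In it, too, line, litter, age, batch and tissue makeup cannot be told apart, and genotype is added to them. Of the 51 loci, 2 were below the filter there. The direction was the same between 189N3 and Dp(16)1Yey/+ libraries for 47 of the other 49 (95.9%), against 94.8% of 1332 called loci of all classes. The libraries did not overlap for 14 of the 49 (28.6%, against 41.4%). With Dp(16)1Yey/+ replicate 1 left out the direction was the same for 48 (98.0%, against 98.3%), and 21 did not overlap (42.9%, against 58.7%). The median size of the log2 fold change was 1.14 in the littermates and 0.53 in the transgenic libraries. XLOC_033468, assembled as 3 transcripts opposite Snx7 between 4930455H04Rik and Dpyd on chromosome 3 (116984406 to 118562129), had 117, 134 and 173 normalized fragments in the littermates of 189N3 and 55.6, 66.3, 66.9 and 61.7 in those of Dp(16)1Yey/+. The log2 fold change was 1.14 (standard error 0.18, limma adjusted p = 0.0315). In the transgenic libraries it had 129, 118 and 112 against 95.9, 57.6, 78.6 and 85.5, again without overlap. XLOC_033023, opposite the semaphorin gene Sema4a between Paqr6 and Mex3a, had 284, 249 and 272 against 534, 561, 412 and 447. Its log2 fold change was -0.85 (standard error 0.15, limma adjusted p = 0.0324), and the transgenic libraries had 306, 262 and 171 against 562, 409, 540 and 572.

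At other loci the transgenic libraries overlapped. XLOC_057638, opposite Hcfc1 on the X chromosome between Avpr2 and Tktl1, had 38.1, 29.8 and 24.2 in the littermates of 189N3 and 65.9, 76.2, 71.2 and 78.9 in those of Dp(16)1Yey/+, a log2 fold change of -1.24 (limma adjusted p = 0.0315). The transgenic libraries had 44.0, 42.4 and 55.0 against 77.1, 44.7, 49.0 and 43.3. Other loci with the smallest p-values were XLOC_017805 after Pkhd1l1 on chromosome 15 (log2 fold change 1.45, and -0.24 in the transgenic libraries), XLOC_047099 on chromosome 7 (1.24 and 0.75) and XLOC_045303 on chromosome 6 (1.44 and 0.09). Also among them were XLOC_047919 between Apobr and Bola2 (-1.51 and -0.43), XLOC_042143 between Rnft2 and Gm10390 (-2.41 and -1.19) and XLOC_011330 after Mark3 (-1.96, below the filter in the transgenic libraries). XLOC_019812 between 1810013L24Rik and Rpl39l on chromosome 16 had 0.91 and 2.13, without overlap in either. There the library labelled Dp(16)1Yey/+ replicate 1 had 11.8 normalized fragments, against 127, 71.4 and 46.3 in replicates 0, 2 and 3. Against its littermates the log2 fold change in Dp(16)1Yey/+ was -1.11, and -0.47 without that library.

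**Figure D4:**
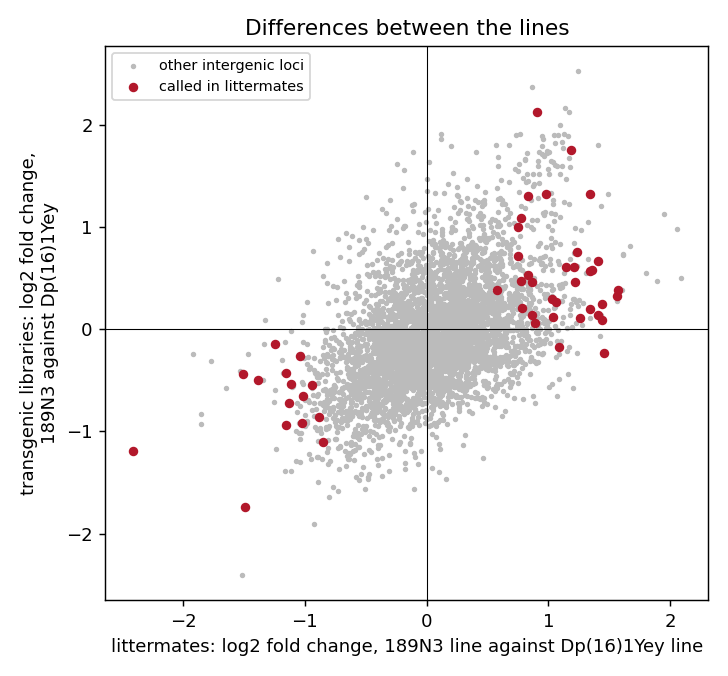
Differences between the lines for each intergenic locus, with the log2 fold change in wild-type littermates on the x axis and that in transgenic libraries on the y axis. Red points are the called loci that were tested in both comparisons; of these 49, 47 have the same direction in both.

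Of the 48 loci with several transcripts, XLOC_044848 had the most, with 5. It lies on the minus strand of chromosome 6 between Neurod6, a transcription factor gene of pyramidal neurons, and Pde1c (55681263 to 56069804). It had 298, 798, 343 and 732 normalized fragments in Dp(16)1Yey/+ and 228, 245, 273 and 257 in the littermates, without overlap (log2 fold change 0.98, standard error 0.30, limma adjusted p = 0.909), and the log2 fold change was 0.75 without the library labelled replicate 1. Replicates 1 and 3 carried most of the difference. In 189N3 it had 489, 294 and 403 against 287, 337 and 479, which overlap. XLOC_033972, XLOC_021929 and XLOC_049382 had 4 transcripts. XLOC_049382, between Polg and Rhcg on chromosome 7, had 30.1 to 53.2 in the 6 libraries of the 189N3 line and 65.8 to 101 in the 8 of the Dp(16)1Yey line. XLOC_020429, with 3 transcripts, belonged to the block opposite Robo2 and had log2 fold changes of 0.94 in 189N3 (standard error 0.42) and 0.03 in Dp(16)1Yey/+ (standard error 0.72), which was 0.32 without replicate 1.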

How the data were processed

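RNA of embryonic hippocampus was sequenced as 100-bp paired-end reads; the methods describe stranded total RNA, whereas the labels list polyA RNA. The authors aligned reads with TopHat and Bowtie to mm10, merged Cufflinks assemblies and quantified loci with bias and multiple-mapping correction (versions not given in the sources used here). The deposited signal values are fragments scaled within each library by a common factor, and all nonzero values were whole multiples of 1 step (100% within tolerance), from which whole reads were recovered for the count tests. Loci were matched to the class-code map through isoform sums, as transcript numbers shift by up to 11. The members and lists were chosen with earlier results of these data known. Values were tested as log2(value + 1), which understates changes of low loci, at a mean of at least 10, with limma 3.58.1 (trend, Benjamini-Hochberg over all loci, 0.05; R 4.3.3). Alternatives included edgeR 4.0.16 and DESeq2 1.42.0. Single loci had exact two-sided permutation tests (SciPy 1.17.1). Libraries were treated as replicates as labelled. Where they are not separate embryos, p-values and SDs measure technical spread. Loci were named if among the 10 with most fragments, the 5 smallest p-values per direction and comparison, the 5 per direction of the triplicated segment, those at 0 in 1 line, or the 5 with most transcripts; blocks were chosen after values were seen. Simulated data with known changes were used to test the fits. The simulated loci were independent and their changes large. They therefore do not show how well smaller changes, or changes in blocks that vary together, could be detected.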

Additional observations from a re-analysis of the deposited data

Results flagged for a closer look

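In 44 tests of single libraries against the rest of a group of 4, covering the 10 loci with most fragments and the 12 blocks with most fragments, 1 library stood apart, and chance alone gives about 1 in 20. It was Dp(16)1Yey/+ replicate 3 in the block XLOC_021467 to XLOC_021473 on the minus strand of chromosome 16 between Chmp2b and Hspa13, with 11918 normalized fragments against 5500, 5408 and 4690 in replicates 0, 1 and 2.

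At 5 named loci all libraries of one model lay above their littermates and all libraries of the other model lay below theirs. The log2 fold change in Dp(16)1Yey/+ minus that in 189N3 was 1.5 at XLOC_014895, 1.69 at XLOC_017805, 1.12 at XLOC_021538, -1.31 at XLOC_041388 and 1.35 at XLOC_045303. Without the library labelled Dp(16)1Yey/+ replicate 1 these were 1.51, 1.41, 1.24, -1.05 and 1.21. The interaction was tested in limma, and the adjusted p was 0.922 at each. Several of these loci were named for their interaction, so that the opposite directions follow in part from the choice.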

How the results depend on the processing

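The count of intergenic loci called in 189N3 was 0 in the main analysis and 12 with the replicate number as a block (replicate block), and 431 had groups without overlap. Same-numbered libraries did not deviate together (correlations of -0.03, -0.32 and -0.15 in 189N3 and of -0.44 to -0.07 in Dp(16)1Yey/+). Same-numbered littermates of the 2 lines had 0.4, -0.4 and 0.02. With so few libraries per group these values cannot decide whether the numbers pair the samples. The 12 included 3 loci opposite Dpp10, 4 after Fbxl4 and 1 paired with the Y-linked gene Eif2s3y, of which 189N3 replicate 0 had 0 fragments. In Dp(16)1Yey/+ the count was 0, with 1 in DESeq2 and 152 without overlap. The count in the littermates of both lines was 51, and it was 1 in 1 fit of all 4 groups and 108 in DESeq2 (33 shared with the 51). It was 17 at a mean of at least 100, 14 without a filter, 11 without the trend and 2 with the block. With nearly alike libraries averaged it was 0, and it was 0 without any 1 of the 7 libraries (0 to 0). The littermate groups did not overlap for 780 (16.0%, against 25.5% of all loci). The interaction count was 0 under every alternative run. The median of the triplicated segment was 0.29 to 0.40 under other pseudocounts and scalings and 0.29 to 0.55 with 1 library left out. XLOC_021511 ranged from -0.24 to 0.013 with 1 library left out and changed sign without Dp(16)1Yey/+ replicate 2. Loci near a mean of 10 rest on few fragments, where only large changes could be detected. The causes of these changes were not tested. The counts of loci past an unadjusted p and without overlap, the shares in the transgenic comparison of the lines and the correlations that leave out the library labelled Dp(16)1Yey/+ replicate 1 were added after seeing the data.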
